A study of Mus musculus with 9 samples.

Results

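The genes described here are 40 interferon-stimulated genes of the mouse that lie outside the IFIT, MX, OAS, GBP, IRG, IRF, RNA-sensor and MHC families. They were chosen by gene symbol from a list of such genes, and no measured value entered the rule. The members were, however, chosen with earlier results of these data known. All 40 symbols were found among the 52550 genes of the count table, all 40 are annotated as protein coding, and all 40 passed the low-count filter.

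The 9 libraries came from micromass cultures, which are dense drops of limb cells that form cartilage in the dish. The cells came from mouse fore limbs at embryonic day 12 and grew overnight before treatment. For 6 days, 3 cultures received Q-VD-OPH (OPH) at 100 µM, 3 received Z-VAD-FMK (FMK) at 100 µM and 3 received the vehicle DMSO alone, with the medium changed every 2 days. Both agents are peptide-based inhibitors of caspases, the proteases of apoptosis: FMK carries a fluoromethyl ketone group and OPH a difluorophenoxymethyl ketone group. The labels name no genotype or strain, call the cultures biological replicates, and do not say whether animals were pooled or whether equal replicate numbers share a litter or a day. If they do not come from separate preparations, the p-values measure the spread between cultures only.

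Type I interferons bind the receptor IFNAR, which activates the kinases JAK1 and TYK2. The kinases switch on a transcription factor complex that holds STAT2 and IRF9. The complex binds the interferon-stimulated response element, a repeat of GAAA spaced by a pair of bases, and turns on a large set of genes whose products restrict viruses or adjust the response itself.

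Library totals were 5659789 to 6867350 counts. The labels call the cells chondroblasts, and all 8 chondrocyte markers checked had counts in every group, with summed levels of 1204 to 2116 CPM (counts scaled to a common library total) with OPH, 1235 to 1334 CPM with FMK and 2520 to 3708 CPM with DMSO. Other cell types were present too. The 15 macrophage and monocyte markers summed to 214 to 251 CPM with OPH, 29 to 43.8 CPM with FMK and 1378 to 2648 CPM with DMSO, and all 15 were lower with either inhibitor than with DMSO. The 8 adipocyte markers summed to 712 to 2747 CPM with OPH, 111 to 202 CPM with FMK and 477 to 2420 CPM with DMSO. The 7 fibroblast and mesenchyme markers, the list with the highest sum, came to 19513 to 19974 CPM with OPH, 25274 to 26839 CPM with FMK and 24365 to 25972 CPM with DMSO. The 8 skeletal muscle markers came to 178 to 502 CPM with OPH, 93.7 to 374 CPM with FMK and 168 to 568 CPM with DMSO. The 11 markers of lymphocytes, NK cells and plasmacytoid dendritic cells stayed at or under 2.61 CPM in sum in every library. Of the 11, 8 were at 0 with OPH, 10 with FMK and 6 with DMSO. In these bulk samples fewer cells of a type and less RNA per cell cannot be told apart.

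With either inhibitor nearly the whole set stood far above its level in DMSO cultures. Against DMSO, 36 of the 40 genes were called higher with OPH (adjusted p under 0.05, edgeR's quasi-likelihood test), 4 were not called and 0 were called lower, against a background of 8.6% of all 13255 tested genes called higher and 8.11% called lower. With FMK, 38 of 40 were called higher, 2 were not called and 0 were called lower, where 10.4% of all tested genes were called higher and 10.1% lower. The median log2 fold change of the 40 genes was 2.71 with OPH and 3.08 with FMK, while that of all tested genes was -0.0025 with OPH and -0.0064 with FMK. In 38 of 40 genes the 3 inhibitor libraries all lay above the 3 DMSO libraries, with OPH and likewise with FMK, against 16.6% of tested genes with OPH and 17.4% with FMK. Called rises of at least 10-fold were seen for 13 of the 40 genes with OPH and 16 with FMK. Among all 13255 tested genes there were 96 with OPH and 123 with FMK. At an unadjusted p under 0.05, 0 of the 40 were lower with OPH and 1, Ifi27, with FMK. DESeq2 called 0 lower with OPH and 1 lower with FMK, and limma-voom 0 with either. No share of all tested genes is given for the unadjusted, DESeq2 and limma-voom counts. Both comparisons use the same 3 DMSO libraries, so their values are given side by side and their likeness is not counted as a second observation.

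**Figure D1:**
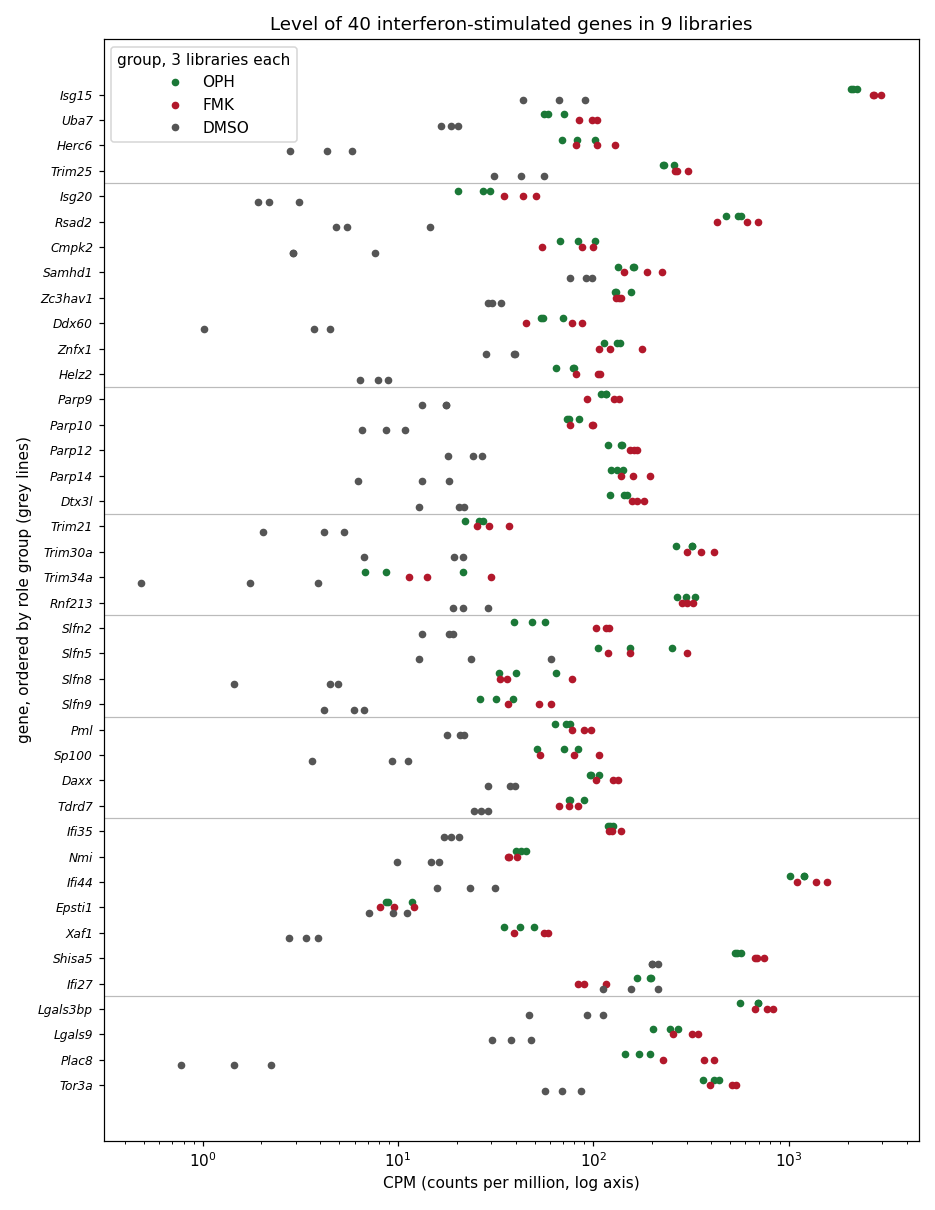
Level of the 40 interferon-stimulated genes in CPM on a log axis, 1 row per gene and 1 point per library, with OPH in green, FMK in red and DMSO in grey; grey lines part the role groups. For 38 of 40 genes the green and red points lie right of all grey points, and the exceptions are Epsti1 and Ifi27.

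**Figure D2:**
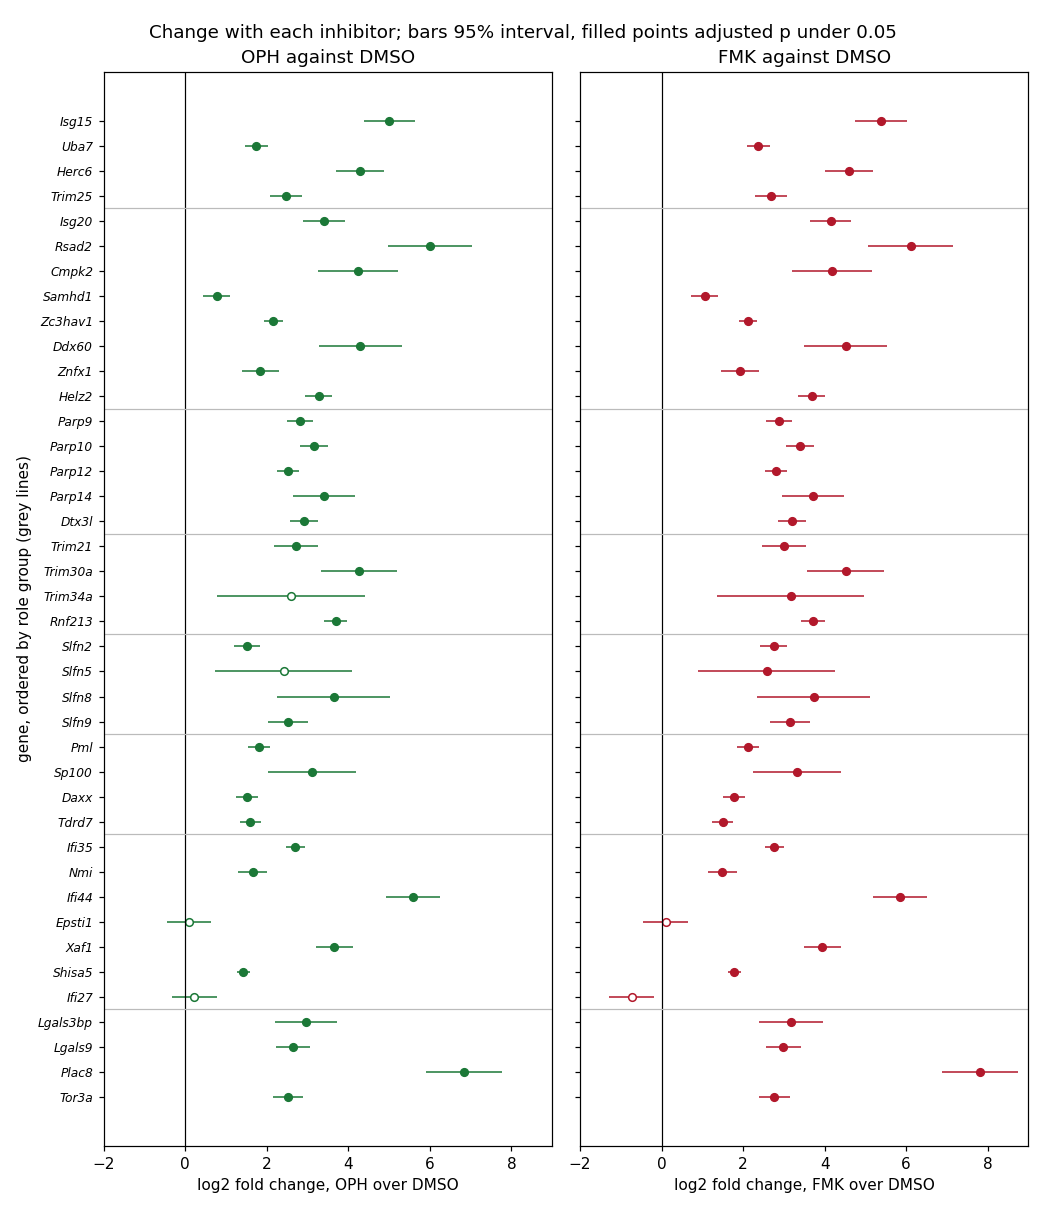
Log2 fold change of each gene over DMSO with its 95% interval, OPH on the left and FMK on the right, filled where the adjusted p was under 0.05. Plac8 lay farthest right in both panels, at 6.83 with OPH and 7.81 with FMK, and Epsti1 lay near 0 in both.

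The promoters of 6 genes are shown because they hold the element named above in the genes of the ISG15, nucleotide-enzyme and Schlafen groups, and because 2 others, Plac8 with the largest rise and Epsti1 with no call against DMSO, hold none. Sequences are the 250 bases before the start annotated by RefSeq on GRCm38.p6, written 5′ to 3′ along the gene's strand. Capitals mark every match to GAAA-NN-GAAA or to its reverse complement TTTC-NN-TTTC. Isg15 (chr4:156200819-156201068, minus strand) holds 3 overlapping matches that begin 78, 72 and 66 bases before the start, Rsad2 (chr12:26456453-26456702, minus strand) holds 1 at 120 bases, Slfn8 (chr11:83020811-83021060, minus strand) 1 at 48 bases and Slfn9 (chr11:82991831-82992080, minus strand) 1 at 45 bases. Plac8 (chr5:100572206-100572455, minus strand) and Epsti1 (chr14:77903989-77904238, plus strand) have no match in these letters.
Isg15: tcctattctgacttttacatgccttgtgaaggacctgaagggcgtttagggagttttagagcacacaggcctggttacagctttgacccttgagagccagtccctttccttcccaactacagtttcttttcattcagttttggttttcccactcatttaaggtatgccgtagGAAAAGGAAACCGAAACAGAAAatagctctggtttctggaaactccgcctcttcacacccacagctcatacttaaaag
Rsad2: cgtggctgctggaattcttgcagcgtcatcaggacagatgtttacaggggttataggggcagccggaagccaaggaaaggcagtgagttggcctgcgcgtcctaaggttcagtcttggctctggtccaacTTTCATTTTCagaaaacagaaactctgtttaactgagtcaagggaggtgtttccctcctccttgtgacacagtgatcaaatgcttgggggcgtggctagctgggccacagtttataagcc
Slfn8: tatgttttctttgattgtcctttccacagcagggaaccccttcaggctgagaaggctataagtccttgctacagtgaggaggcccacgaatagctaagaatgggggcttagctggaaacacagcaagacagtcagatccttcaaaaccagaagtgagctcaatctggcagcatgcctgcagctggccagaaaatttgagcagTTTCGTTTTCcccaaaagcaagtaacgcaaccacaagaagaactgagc
Slfn9: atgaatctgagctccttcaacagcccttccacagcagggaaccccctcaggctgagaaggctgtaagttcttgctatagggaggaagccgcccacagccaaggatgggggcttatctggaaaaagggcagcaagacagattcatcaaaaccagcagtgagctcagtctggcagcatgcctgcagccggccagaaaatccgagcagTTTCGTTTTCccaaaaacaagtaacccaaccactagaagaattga
Plac8: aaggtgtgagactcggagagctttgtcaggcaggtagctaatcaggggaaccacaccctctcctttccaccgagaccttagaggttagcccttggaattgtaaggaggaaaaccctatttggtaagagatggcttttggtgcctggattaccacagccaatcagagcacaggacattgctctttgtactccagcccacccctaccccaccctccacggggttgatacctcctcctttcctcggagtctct
Epsti1: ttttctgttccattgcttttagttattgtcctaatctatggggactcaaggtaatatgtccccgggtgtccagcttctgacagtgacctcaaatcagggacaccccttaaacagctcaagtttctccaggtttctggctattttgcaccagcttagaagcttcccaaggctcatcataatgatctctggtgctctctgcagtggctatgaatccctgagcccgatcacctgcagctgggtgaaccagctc
The Slfn8 and Slfn9 stretches resemble each other, identical at 206 of 242 bases aligned without a gap (85.1%), and their match has the same letters.

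Promoter windows reaching from 250 bases before to 50 bases after a start were on hand for 35 of the 40 genes, and not for Parp10, Tor3a, Parp9, Ifi27 and Parp14. GAAA-NN-GAAA, searched on both strands, was in a window of 12 of these 35 genes (34.3%), against 3.99% of the 27025 genes with a window. Counted by window, 14 of 50 held it (28.0%), against 3.44% of 32851 windows. Apart from the 4 genes shown above, the element was in windows of Ddx60, Trim21, Trim30a, Trim34a, Slfn5, Tdrd7, Shisa5 and Lgals9. The median log2 fold change with OPH was 2.68 in the 12 genes with a match and 2.70 in the 23 without. With FMK it was 3.16 in those with a match and 2.81 in those without. Whether the element was used in these cultures was not measured.

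**Figure D3:**
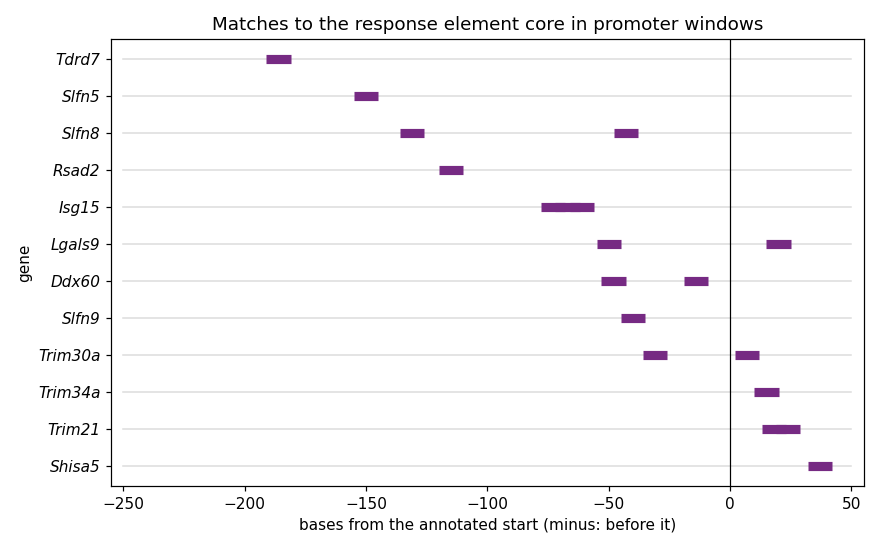
Position of each GAAA-NN-GAAA match, on either strand, in the promoter windows of the 12 genes that hold one, in bases from the annotated start; the grey line is the 300-base window. Matches lay from 191 bases before to 33 bases after a start, and the 2 marks of Slfn8 are 1 site seen from 2 annotated starts.

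Isg15, a ubiquitin-like protein that is attached to other proteins, and its partners were all raised by both inhibitors (4 of 4 called with OPH, 4 of 4 with FMK). Isg15 (ENSMUSG00000035692, chr4:156199424-156200818, minus strand), whose promoter holds the 3 overlapping matches shown above, had 2134, 2245 and 2073 CPM in the OPH libraries, 2679.6, 2978 and 2731 CPM in the FMK libraries and 90.2, 66.9 and 43.8 CPM in the DMSO libraries. Every inhibitor library lay far above every DMSO library, and the OPH libraries all lay below the FMK libraries. Its log2 fold change was 5.01 ± 0.26 with OPH (32.1-fold, adjusted p = 3.06e-05) and 5.38 ± 0.27 with FMK (41.8-fold, adjusted p = 1.28e-05). Uba7, the enzyme that activates ISG15 for attachment, had 70.4, 58.9 and 55.6 CPM in the OPH libraries, 98.3, 104 and 84.6 CPM in the FMK libraries and 18.6, 20.3 and 16.5 CPM in the DMSO libraries. The groups formed separate steps with no overlap, highest with FMK and lowest with DMSO, and the change over DMSO was 1.74 ± 0.13 with OPH (adjusted p = 5.35e-08) and 2.37 ± 0.13 with FMK (adjusted p = 4.72e-10). Uba7 shares sequence on the same strand with the annotated gene Gm20661, and how reads of the overlap were assigned is not given in the sources used here. Herc6, the ligase that attaches ISG15 in the mouse, rose 19.6-fold with OPH and 24.3-fold with FMK, and Trim25, a ubiquitin ligase that acts on RNA sensing, rose 5.52-fold with OPH and 6.43-fold with FMK.

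All 8 enzymes and binding proteins of nucleotides and RNA rose with OPH and all 8 with FMK. Rsad2, which encodes viperin, an enzyme known in humans to make a chain-terminating nucleotide, had 569, 547 and 478 CPM in the OPH libraries, 607, 694 and 428 CPM in the FMK libraries and 14.6, 4.83 and 5.51 CPM in the DMSO libraries. The inhibitor libraries stood far above the highest DMSO library, that of replicate 1, and OPH and FMK overlapped. Its log2 fold change was 6.00 ± 0.43 with OPH (adjusted p = 0.000206) and 6.12 ± 0.43 with FMK (adjusted p = 0.000124). Cmpk2, a mitochondrial nucleotide kinase, starts 12752 bases from Rsad2 on chromosome 12, and the pair is read in opposite directions. Cmpk2 had 83.7, 102 and 67.3 CPM in the OPH libraries, 87.4, 100.1 and 54.9 CPM in the FMK libraries and 7.61, 2.9 and 2.9 CPM in the DMSO libraries, and as for Rsad2 the highest DMSO value was that of library 1. Its log2 fold change was 4.24 ± 0.42 with OPH and 4.18 ± 0.42 with FMK.

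Isg20, an exonuclease that degrades single-stranded RNA, had 27.3, 29.7 and 20.2 CPM in the OPH libraries, 43.5, 50.7 and 34.7 CPM in the FMK libraries and 3.1, 1.93 and 2.18 CPM in the DMSO libraries. No group overlapped another, and FMK was highest. The change over DMSO was 3.41 ± 0.24 with OPH (adjusted p = 2e-08) and 4.15 ± 0.24 with FMK (adjusted p = 6.45e-10). Helz2, a helicase of the nucleus, rose by 3.27 ± 0.16 with OPH and 3.68 ± 0.16 with FMK on the log2 scale, at 74.3 ± 8.54 CPM with OPH, 98.5 ± 15 CPM with FMK and 7.7 ± 1.24 CPM with DMSO (SD, n = 3 each). Ddx60, a helicase linked to RNA sensing, rose 19.5-fold with OPH and 23-fold with FMK. Zc3hav1, the zinc-finger antiviral protein that binds CpG-rich viral RNA, rose 4.48-fold with OPH and 4.34-fold with FMK, and Znfx1, a mitochondrial sensor of RNA, 3.58-fold with OPH and 3.8-fold with FMK. The smallest rise called was that of Samhd1, which breaks down the building blocks of DNA, at 161, 159.6 and 134 CPM with OPH, 187, 223 and 144 CPM with FMK and 98.9, 91.9 and 75.8 CPM with DMSO. Its change was 0.77 ± 0.15 with OPH (adjusted p = 0.00421) and 1.06 ± 0.15 with FMK (adjusted p = 0.000329), and with OPH it was the single called gene under 2-fold.

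The 4 ADP-ribosyltransferase-family genes Parp9, Parp10, Parp12 and Parp14, and Dtx3l, the ubiquitin ligase that pairs with PARP9, rose over a narrow range. All 5 were called with either inhibitor, at 2.53 ± 0.13 to 3.40 ± 0.32 with OPH and 2.81 ± 0.13 to 3.72 ± 0.32 with FMK on the log2 scale. Parp12, which modifies proteins and binds RNA, had 139, 139.7 and 119 CPM in the OPH libraries, 168, 161 and 155 CPM in the FMK libraries and 26.9, 24.1 and 18.1 CPM in the DMSO libraries. Its libraries lay close together within each group, OPH lay wholly below FMK, and both lay clear of DMSO. Parp14, a large ADP-ribosyltransferase that acts on STAT signalling, had 124, 141 and 133 CPM in the OPH libraries, 160.0, 194 and 138 CPM in the FMK libraries and 13.3, 18.2 and 6.24 CPM in the DMSO libraries, with overlap between OPH and FMK and the lowest DMSO value in library 3.

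Parp9 and Dtx3l lie head to head on chromosome 16, their starts 681 bases apart and their first bases overlapping on opposite strands. Parp9 rose 7.04-fold with OPH and 7.35-fold with FMK, and Dtx3l 7.54-fold with OPH and 9.21-fold with FMK. The kit reads 3′ ends, which for this pair lie at the outer ends of the locus. Parp10 overlaps Plec on the same strand, so its counts are uncertain, and it rose 8.93-fold with OPH and 10.5-fold with FMK.

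Among the TRIM and RING ubiquitin ligases, 3 of 4 were called higher with OPH and 4 of 4 with FMK. Rnf213, a giant ligase of the cytosol known in humans as a moyamoya disease gene, had 267, 330.0 and 296 CPM in the OPH libraries, 302, 324 and 285 CPM in the FMK libraries and 19.1, 28.8 and 21.5 CPM in the DMSO libraries. The OPH and FMK ranges overlapped and every library of both lay far above the highest DMSO library, with changes of 3.69 ± 0.13 (adjusted p = 2.83e-11) with OPH and 3.72 ± 0.14 (adjusted p = 1.65e-11) with FMK. Trim30a, a mouse relative of the retrovirus restriction factor TRIM5, had 321, 319 and 264 CPM in the OPH libraries, 357, 414 and 301 CPM in the FMK libraries and 19.2, 21.4 and 6.67 CPM in the DMSO libraries. The lowest Trim30a value of each group was in library 3, and the changes were 4.26 ± 0.39 with OPH and 4.51 ± 0.39 with FMK. Trim21, a cytosolic antibody receptor that directs virus particles to the proteasome, rose 6.57-fold with OPH and 8-fold with FMK.

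Trim34a, of the same TRIM gene cluster, was the least certain of the ligases. It had 21.5, 8.65 and 6.79 CPM in the OPH libraries, 29.8, 14.1 and 11.4 CPM in the FMK libraries and 3.88, 0.483 and 1.74 CPM in the DMSO libraries, so that library 1 was highest in each group and the inhibitor libraries still all lay above the DMSO libraries. With OPH its change of 2.58 ± 0.77 did not pass (adjusted p = 0.0642), while with the replicate number in the model it did (2.58 ± 0.31, adjusted p = 1.54e-07). With FMK the change of 3.16 ± 0.76 passed (adjusted p = 0.0257), but not without DMSO library 2 (adjusted p = 0.0594) or without DMSO library 3 (adjusted p = 0.0948). Trim30a and Trim34a have close relatives in the genome, and how reads shared with these were counted is not given in the sources used here.

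The Schlafen genes, regulators of cell quiescence and of virus replication, lie together on chromosome 11 at chr11:82951349-83070678, from the start of Slfn5 to the end of Slfn2. With OPH 3 of 4 were called higher, and with FMK 4 of 4. Slfn2, which keeps resting T cells of the mouse quiescent, had 48.7, 39.4 and 56.5 CPM in the OPH libraries, 119, 116 and 103 CPM in the FMK libraries and 18.2, 19.2 and 13.3 CPM in the DMSO libraries. The groups were fully apart, with OPH between FMK and DMSO. Its change over DMSO was 1.51 ± 0.15 with OPH (adjusted p = 2.14e-06) and 2.75 ± 0.15 with FMK (adjusted p = 5.15e-10). 

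Slfn8 had 64.6, 32.9 and 40.3 CPM in the OPH libraries, 77.2, 33.3 and 36 CPM in the FMK libraries and 4.5, 1.45 and 4.93 CPM in the DMSO libraries. In OPH and FMK alike library 1 stood well above the other two, and every inhibitor library exceeded every DMSO library. The change was 3.64 ± 0.58 with OPH (adjusted p = 0.00661) and 3.73 ± 0.58 with FMK (adjusted p = 0.00465). Slfn9, its neighbour with a similar promoter, had 38.6, 26.2 and 31.6 CPM in the OPH libraries, 60.5, 52.7 and 36.5 CPM in the FMK libraries and 6.67, 4.18 and 5.95 CPM in the DMSO libraries. Slfn9 changed by 2.51 ± 0.23 with OPH and 3.15 ± 0.23 with FMK. Because Slfn8 and Slfn9 are close copies, reads may have been split between them and both sets of values are uncertain. Slfn5, a nuclear Schlafen protein, had 106, 251 and 155 CPM in the OPH libraries, 119, 301 and 153 CPM in the FMK libraries and 23.6, 60.3 and 12.8 CPM in the DMSO libraries, and library 2 was highest in each group. Its change of 2.41 ± 0.69 with OPH was not called (adjusted p = 0.0661) but was with the replicate number in the model (2.5 ± 0.32, adjusted p = 0.00682) and without DMSO library 2 (adjusted p = 0.0417). With FMK the change of 2.58 ± 0.69 passed narrowly (adjusted p = 0.0466), and it was lost without DMSO library 1 (adjusted p = 0.146) or 3 (0.105), and without FMK library 1 (0.0656), 2 (0.129) or 3 (0.0784).

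Pml, Sp100 and Daxx encode parts of PML nuclear bodies, the nuclear dots at which incoming viral genomes are silenced, and were listed together with Tdrd7, which encodes a Tudor-domain protein of cytoplasmic RNA granules. All 4 were called higher with either inhibitor, with a median log2 fold change over the 4 of 1.70 with OPH and 1.95 with FMK. Pml, which encodes the scaffold of these bodies, had 75.5, 63.6 and 72.5 CPM in the OPH libraries, 89.5, 97 and 77.6 CPM in the FMK libraries and 21.9, 17.9 and 20.9 CPM in the DMSO libraries. Its OPH libraries all lay below its FMK libraries and both lay clear of DMSO, with changes of 1.80 ± 0.13 (adjusted p = 1.96e-08) with OPH and 2.12 ± 0.13 (adjusted p = 1.28e-09) with FMK. Sp100, a chromatin-binding component of the bodies, had 70.9, 83.8 and 51.3 CPM in the OPH libraries, 79.5, 107 and 53.2 CPM in the FMK libraries and 9.31, 11.3 and 3.63 CPM in the DMSO libraries. Its libraries ranged widely, with library 3 the lowest of each group, and its change was the largest of the 4, at 3.10 ± 0.45 with OPH and 3.32 ± 0.45 with FMK. Daxx, a histone chaperone, rose 2.84-fold with OPH and 3.43-fold with FMK, and Tdrd7 3.02-fold with OPH and 2.82-fold with FMK.

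Of the 7 genes of signalling partners and apoptosis-linked products, 5 were called higher with either inhibitor. Ifi44, a cytoplasmic protein with antiproliferative activity in human cells, had 1199.7, 1191 and 1008 CPM in the OPH libraries, 1381, 1561 and 1106 CPM in the FMK libraries and 31.4, 23.5 and 15.8 CPM in the DMSO libraries. The inhibitor libraries overlapped each other and all lay far above DMSO. Its changes were 5.59 ± 0.28 (adjusted p = 1.8e-05) with OPH and 5.84 ± 0.28 (adjusted p = 8.45e-06) with FMK. Ifi35, which binds NMI, had 118, 126 and 122 CPM in the OPH libraries, 125, 138 and 120.4 CPM in the FMK libraries and 18.6, 20.6 and 17.1 CPM in the DMSO libraries. The libraries of each group lay close together and the inhibitor groups overlapped. Ifi35 had the smallest p of the 40 genes against DMSO with either inhibitor, at 2.70 ± 0.11 (adjusted p = 7.61e-12) with OPH and 2.77 ± 0.11 (adjusted p = 4.1e-12) with FMK.

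Nmi, which binds STAT proteins, rose 3.15-fold with OPH and 2.8-fold with FMK. Xaf1, named for binding the caspase-blocking protein XIAP, rose 12.6-fold with OPH and 15.4-fold with FMK. Shisa5, a membrane protein linked to p53-dependent apoptosis, had 545, 566 and 532 CPM in the OPH libraries, 668, 748 and 691 CPM in the FMK libraries and 198, 215 and 200 CPM in the DMSO libraries. The groups did not overlap, with FMK highest and DMSO lowest, and the changes were 1.42 ± 0.075 with OPH and 1.78 ± 0.076 with FMK.

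Epsti1 and Ifi27 were the genes that did not follow the rest. Epsti1, first described in human breast carcinoma grown with fibroblasts, had 11.8, 8.94 and 8.68 CPM in the OPH libraries, 12.1, 9.59 and 8.07 CPM in the FMK libraries and 11.2, 7.08 and 9.43 CPM in the DMSO libraries. All groups overlapped. The change was 0.088 ± 0.26 with OPH (adjusted p = 0.879, 95% interval -0.46 to 0.63) and 0.10 ± 0.26 with FMK (adjusted p = 0.836, 95% interval -0.45 to 0.65), and both intervals lie below the median of the 40 genes.

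Ifi27, a small hydrophobic membrane protein named for its induction by interferon, had 198, 195 and 167 CPM in the OPH libraries, 116, 89.2 and 83.7 CPM in the FMK libraries and 213, 156 and 111 CPM in the DMSO libraries. FMK libraries were lower than DMSO libraries of the same number throughout, yet FMK library 1 exceeded DMSO library 3, and the OPH libraries lay within the DMSO range. With FMK the change of -0.73 ± 0.24 was not called (adjusted p = 0.0729), but it was with the replicate number in the model (-0.71 ± 0.10, adjusted p = 8.79e-06) and without DMSO library 3 (adjusted p = 0.0013). With OPH it was 0.22 ± 0.23 (adjusted p = 0.614, 95% interval -0.32 to 0.77). 

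The secreted and myeloid-linked genes were all called higher with either inhibitor (4 of 4). Plac8, a cysteine-rich protein known from placenta and white blood cells, had 170.4, 196 and 145 CPM in the OPH libraries, 369, 415 and 228 CPM in the FMK libraries and 0.776, 2.25 and 1.45 CPM in the DMSO libraries. Every DMSO library lay far below every inhibitor library, and OPH lay wholly below FMK. Plac8 had the largest change of the set, at 6.83 ± 0.39 with OPH (113-fold, adjusted p = 2.93e-05) and 7.81 ± 0.39 with FMK (225-fold, adjusted p = 7.48e-06). The 15 macrophage and monocyte markers went the other way in the same libraries, with a median log2 fold change of -2.78 with OPH and -6.24 with FMK. Tor3a, an ATPase of the endoplasmic reticulum, had 439, 412 and 364 CPM in the OPH libraries, 511, 535 and 396 CPM in the FMK libraries and 86.6, 69 and 56.6 CPM in the DMSO libraries, with no overlap with DMSO and with changes of 2.52 ± 0.17 with OPH and 2.76 ± 0.17 with FMK. Lgals3bp, a secreted glycoprotein that binds galectins, rose 7.79-fold with OPH and 9.06-fold with FMK, and Lgals9, which encodes galectin-9, 6.21-fold with OPH and 7.94-fold with FMK.

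The next comparison set the inhibitors against each other at the same dose and time, as 1 pair of compounds tested for each gene, with p adjusted over all 13255 genes. Of the 40 genes, 0 were called higher and 4 were called lower with OPH than with FMK, where 4.2% of all tested genes were called higher and 4.66% lower. At an unadjusted p under 0.05, 1 was higher and 10 were lower. DESeq2 called 1 higher and 6 lower, and limma-voom 0 higher and 6 lower. No share of all tested genes is given for the unadjusted, DESeq2 and limma-voom counts, so they are not set against a background. Those called lower in edgeR's test were Slfn2, Uba7, Isg20 and Shisa5. Slfn2, with 48.2 ± 8.55 CPM with OPH and 113 ± 8.59 CPM with FMK (SD, n = 3 each), differed most, by -1.23 ± 0.14 on the log2 scale (95% interval -1.53 to -0.93, adjusted p = 4.71e-05). Uba7 differed by -0.64 ± 0.12 (interval -0.89 to -0.38, adjusted p = 0.00332) and Shisa5 by -0.36 ± 0.073 (interval -0.51 to -0.20, adjusted p = 0.00516). Isg20 differed by -0.74 ± 0.18 (adjusted p = 0.0169), and its call was lost without FMK library 1 (adjusted p = 0.0594), FMK library 2 (0.101) or OPH library 3 (0.0786). Without FMK library 3 there were 8 lower calls in place of 4, adding Samhd1, Helz2, Slfn9 and Plac8, and without OPH library 1 Slfn9 was added (adjusted p = 0.0413). No share of all tested genes is given for the fits with a library left out.

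The direction was shared more widely than the calls. Of 40 log2 fold changes 35 were negative, against 6477 of 13255 for all tested genes. The median of the 40 was -0.25, against 0.0084 for all tested genes. Without FMK library 2 the median of the 40 was -0.15 and without FMK library 3 -0.37. In 11 genes every OPH library lay below every FMK library, against 13.3% of tested genes, and in 1, Ifi27, every OPH library lay above, against 13.9%. Scaled by library totals alone, the median of all genes moved by over 0.1, to 0.12, and that of the 40 genes was -0.14. Taken by replicate number, OPH was below FMK in all 3 numbers for 26 of 40 genes, against 23% of tested genes, and above in all 3 for Tdrd7 and Ifi27, against 23.8%. With the replicate number in the model 13 of 40 genes were lower and 1 was higher, where 8.36% of tested genes were lower and 7.78% higher. The genes this added were Plac8 (-0.96 ± 0.096, adjusted p = 7.07e-08), Slfn9 (-0.64 ± 0.15, adjusted p = 0.00307), Helz2, Samhd1, Parp12, Dtx3l, Pml, Lgals9 and Tor3a on the lower side (the last 7 at -0.40 to -0.24) and Ifi27 on the higher side (0.97 ± 0.10, adjusted p = 2.94e-07). Without the number in the model Plac8 (-0.99 ± 0.24, adjusted p = 0.0514), Slfn9 (-0.64 ± 0.19, adjusted p = 0.0515) and Ifi27 (0.95 ± 0.24, adjusted p = 0.0514) missed the threshold narrowly.

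For 30 of the 40 genes the 95% interval of the OPH against FMK difference lay inside a 2-fold change either way. The same held for 9422 of all 13255 tested genes. Of the 40 genes, the 10 whose interval reached beyond a 2-fold change were Isg20, Trim30a, Trim34a, Slfn2, Slfn5, Slfn8, Slfn9, Sp100, Ifi27 and Plac8. Among genes with little difference, Rnf213 differed by -0.029 ± 0.12 (interval -0.27 to 0.22), Ifi35 by -0.066 ± 0.095 (interval -0.27 to 0.14) and Zc3hav1 by 0.045 ± 0.097 (interval -0.16 to 0.25). Isg15 differed by -0.38 ± 0.22 (interval -0.90 to 0.14, adjusted p = 0.377), with the OPH libraries all below the FMK libraries. In the edgeR fit of the OPH and FMK libraries alone, Isg15 was called lower with OPH (-0.38, adjusted p = 0.002955). In the same libraries 13 of the 15 macrophage and monocyte markers were called higher with OPH than with FMK (median log2 fold change 3.30). Of the 8 adipocyte markers 1 was called higher and 0 lower, with a median of 4.38. Of the 7 fibroblast and mesenchyme markers 4 were called lower and 0 higher, with a median of -0.37. The part of these cell types in the differences was not tested.

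**Figure D4:**
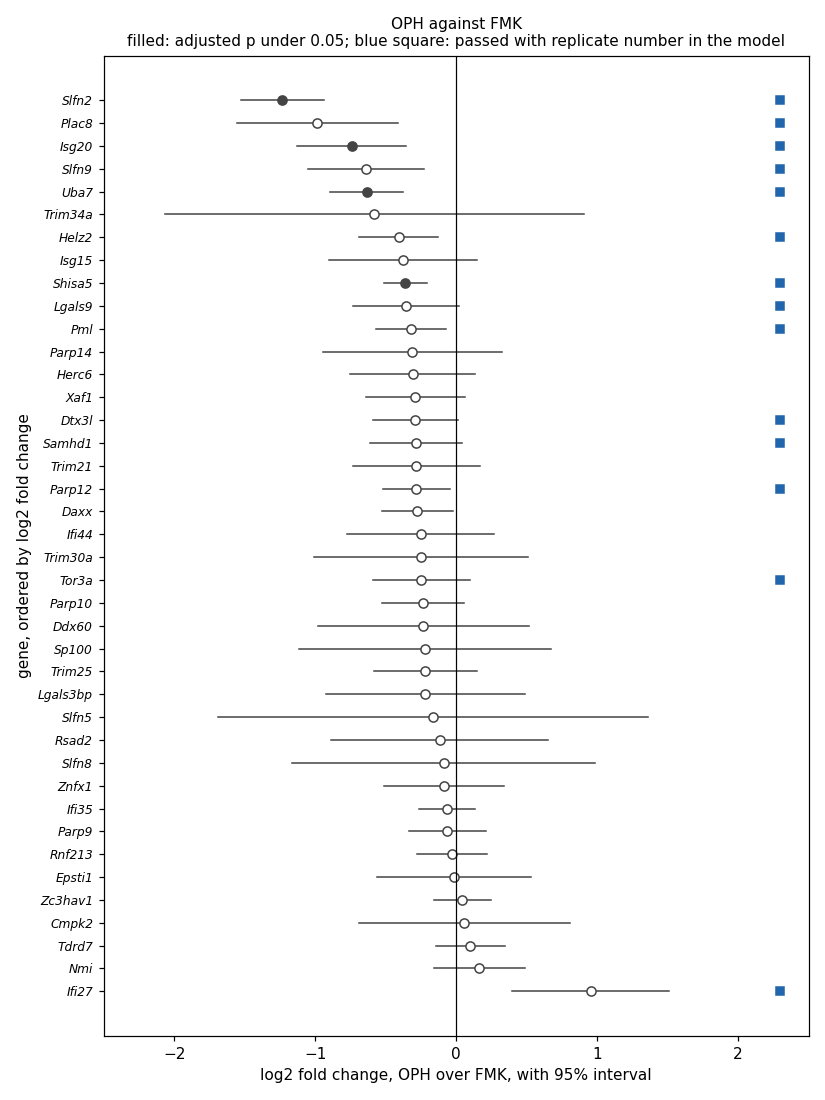
Log2 fold change of OPH over FMK for each of the 40 genes, with its 95% interval, sorted from lowest to highest. Filled points are the 4 genes with an adjusted p under 0.05 (Slfn2, Isg20, Uba7 and Shisa5), and blue squares mark the 14 genes that passed with the replicate number in the model.

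Among the 40 genes, library 3 was often the lowest of its group. The lowest value of the group was in library 3 for 29 of 40 genes with OPH, 35 with FMK and 27 with DMSO, against 33.6%, 37.1% and 36.2% of all tested genes in these groups. Slfn5 was highest in library 2 and Trim34a in library 1 of each group. Library 3 also had the lowest summed level of adipocyte markers and the highest of skeletal muscle markers in each group, and DMSO library 3 the lowest of macrophage and monocyte markers among the DMSO libraries (1378 CPM, against 2249 and 2648 CPM). Whether any of these bears on the 40 genes was not tested. The median coefficient of variation between the 3 libraries was 10.6% with OPH, 16.4% with FMK and 24.7% with DMSO.

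**Figure D5:**
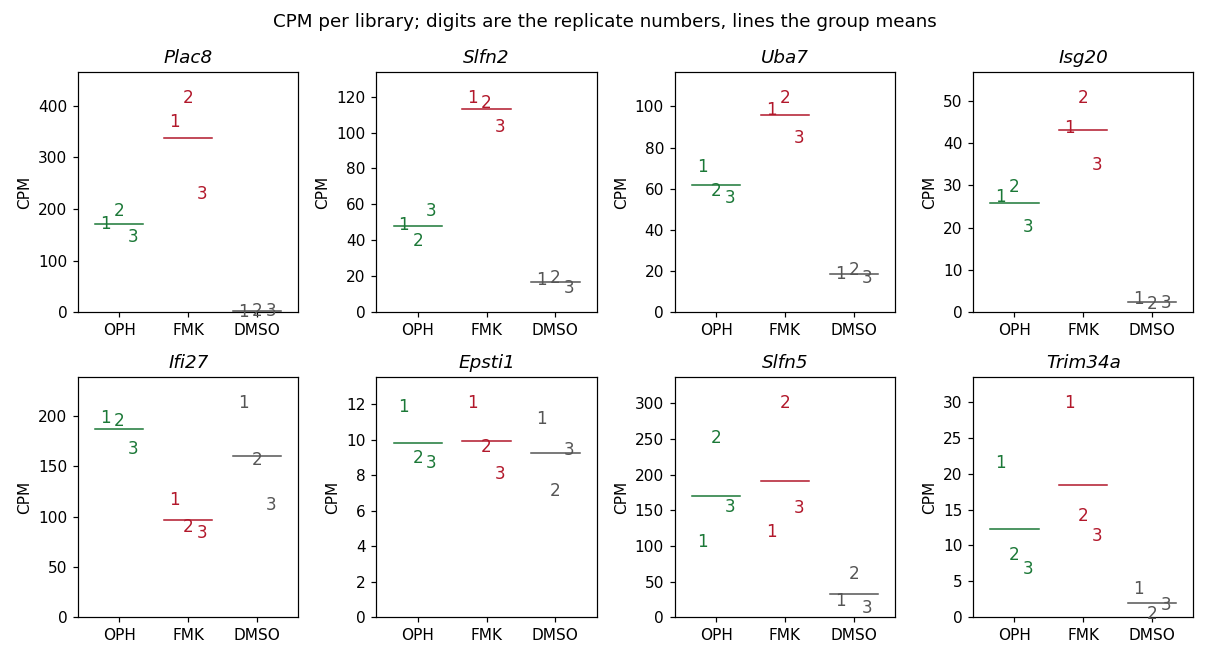
CPM per library of 8 genes with OPH, FMK and DMSO, where digits are the replicate numbers and lines the means of 3 libraries. Plac8, Slfn2, Uba7 and Isg20 fall into separate levels highest with FMK, Ifi27 is lowest with FMK, Epsti1 overlaps in all groups, and Slfn5 (number 2) and Trim34a (number 1) keep the same highest number in each group.

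Part of the signalling chain above these genes changed in the same libraries. Of 22 ligand, receptor, kinase, transcription factor and feedback genes listed, 21 were tested. Against DMSO, 11 were higher and 3 lower with OPH, where 8.6% of all tested genes were called higher and 8.11% lower. With FMK 13 were higher and 4 lower, where 10.4% of all tested genes were called higher and 10.1% lower. The lower ones of this list, named after their values were seen, were Il10rb, Irf8 and Ptpn6 with either inhibitor and Ifngr1 with FMK. Between the inhibitors 1 was higher with OPH (Ptpn6) and 2 were lower (Ifnb1 and Socs3). Of all tested genes 4.2% were called higher and 4.66% lower in that comparison. Ifnb1, which encodes interferon beta, had 80 counts over the 3 OPH libraries, 190 over the FMK libraries and 0 over the DMSO libraries, at 3.56, 2.98 and 5.37 CPM with OPH and 10.8, 11.6 and 8.99 CPM with FMK. Taken against 3 counts over the DMSO group (0.153 CPM), it was at least 25.9-fold higher with OPH and at least 68.1-fold higher with FMK. OPH differed from FMK by -1.40 ± 0.36 (adjusted p = 0.025). Such floors cover counting error only.

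Of the receptor chains, Ifnar1 was not called (-0.24 ± 0.15 with OPH, -0.24 ± 0.15 with FMK), and Ifnar2 passed with FMK (0.58 ± 0.12, adjusted p = 0.00218) and not with OPH (0.19 ± 0.12, adjusted p = 0.349), while the OPH against FMK difference was -0.39 ± 0.12 (adjusted p = 0.0512). Among the kinases, Tyk2 was not called (-0.20 ± 0.21 with OPH, adjusted p = 0.607, and 0.10 ± 0.21 with FMK, adjusted p = 0.8), nor were the transcription factor gene Irf3 and the receptor gene Ifngr2. Jak1 rose by 0.44 ± 0.079 with OPH and 0.61 ± 0.079 with FMK. Of the parts of the transcription factor complex named above, Irf9 rose by 2.25 ± 0.10 with OPH and 2.09 ± 0.10 with FMK, and Stat2 by 3.27 ± 0.17 with OPH and 3.37 ± 0.17 with FMK. Usp18, the protease that removes ISG15 and damps IFNAR, rose 32.5-fold with OPH and 36.8-fold with FMK, and Irf1, a transcription factor of the interferon response, 3.1-fold with OPH and 3.95-fold with FMK. Ptpn6, a phosphatase of blood cells, fell, with 60 counts over the OPH libraries, 3 over the FMK libraries and 371 over the DMSO libraries, a ratio of FMK to DMSO of 0.00876 (95% counting interval 0.0018 to 0.0258).

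The authors' deposited table gave close counts of calls for these genes. They were 38 higher and 0 lower with OPH against DMSO, and 38 higher and 1 lower with FMK against DMSO. With OPH against FMK they were 1 higher and 6 lower. No share of all genes is given for the deposited calls, so they are not set against a background. Fold changes in the authors' deposited table are DMSO over FMK, DMSO over OPH and FMK over OPH, and their signs were turned here. The sizes were less alike than the counts. With FMK each gene's deposited log2 fold change over DMSO was smaller in size than the one given above. It was 5.97 in place of 7.81 for Plac8, 4.20 in place of 6.12 for Rsad2 and 1.32 in place of 3.16 for Trim34a. For Shisa5 it was 1.76 in place of 1.78. The reason was not tested.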

How the data were processed

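Per the labels' protocols, libraries were prepared from total RNA of 9 cultures with the QuantSeq 3′ kit, whose reads come from transcript ends, and each count stands for one such end. The authors deposited raw counts per gene and library, with their own log2 fold changes, adjusted p-values and other statistics per comparison, per the file headers. Tools named in the submitters' processing notes are FastQC, MultiQC, cutadapt, STAR and, with the mm10 build, DESeq2. How reads were assigned to genes, and whether by strand, is not given in the sources used here, so counts of overlapping genes and of near copies are uncertain. Spike-in rows (99, with 1 count in all) were left out.

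The members, role lists, marker lists and tests were chosen with earlier results of these data known. The counts went into edgeR 4.0.16 (R 4.3.3): filterByExpr (13255 genes kept), TMM scaling (factors 0.946 to 1.03), and a robust quasi-likelihood fit over all 9 libraries with 1 coefficient per group. The F tests are two-sided, with Benjamini-Hochberg adjustment over all tested genes and a threshold of 0.05; adjusted p means this value. CPM are relative to TMM-scaled totals, errors of log2 fold changes are standard errors of the fit, and intervals are 95%. The biological coefficient of variation was 0.156. An exact permutation test of 3 against 3 libraries cannot go below p = 0.1, so single genes were tested within the fit across genes. Genes named with values for every library were, per role group, those with the smallest p and the largest change, neighbouring pairs, and genes not called against DMSO or called between the inhibitors. Helz2, Parp9 and Dtx3l fall under this rule too, but are given by group means or fold changes only. Others named with values for every library were chosen after their values were seen.

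Replicates of 1 group differed by more than sampling of reads gives (chi-square over degrees of freedom of 5.62 to 14.1). Equal numbers in the labels were checked for pairing: deviations from the group means correlated at 0.11 to 0.356 in the 9 pairs of equal number and at -0.284 to 0.0166 in the 18 pairs of unequal number, over all tested genes. Over the 40 genes alone those of equal number ran from -0.0184 (DMSO 3 with OPH 3) to 0.896. Values with the replicate number as a block are therefore given where they change a call. Alternatives were RLE and library-total scaling, no and a stricter low-count filter, DESeq2 1.42.0, limma-voom (limma 3.58.1), a fit of the 2 groups compared, the block, libraries numbered 1 and 2, and leaving out each library. Positions and biotypes come from GENCODE M21, in which 52403 identifiers (99.7%) were found, and promoter windows from RefSeq on GRCm38.p6, whose first 30 transcribed bases were in a GENCODE transcript of the gene for 33 of 35 members.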

Additional observations from a re-analysis of the deposited data

How the results depend on the processing

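Against DMSO, the number of the 40 genes called higher was 35 to 38 over all alternatives, with OPH and with FMK alike. Calls among all genes, in both directions together, numbered 1486 to 3039 with OPH and 1979 to 3551 with FMK. Of the single-gene values under alternatives, 591 with OPH and 580 with FMK kept direction and side of the threshold, and 9 and 20 did not. These concerned Slfn5, Slfn8, Trim34a, Ifi27 and Epsti1. Ifi27 made 1 lower call with FMK under library totals alone, DESeq2, the replicate block and libraries numbered 1 and 2; leaving out a library gave 0 to 1. The median log2 fold change with OPH was 2.80 under limma-voom and 2.6 to 2.94 with a library left out, and with FMK it was 2.87 to 3.22. The call of Slfn5 with FMK was lost without the filter (adjusted p = 0.0744), in the fit of those groups alone (0.0969) and in libraries 1 and 2 (0.231). That of Trim34a was lost under limma-voom (0.0725) and in libraries 1 and 2 (0.129). In libraries 1 and 2 Slfn8 was lost with OPH (0.0975) and FMK (0.0735), and under limma-voom with OPH (0.0509). The causes were not tested.

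The OPH against FMK differences depended more on the processing. Lower calls numbered 7 without the filter, 13 with the replicate block, 11 in libraries 1 and 2, and 3 to 8 with a library left out. Higher calls numbered 1 (Ifi27) under library totals alone, no filter, DESeq2, the fit of those groups alone, the block, and libraries 1 and 2. Apart from the block, no share of all tested genes by direction is given for these counts, so they are not set against a background. The median was -0.14 under library totals and -0.37 to -0.15 with a library left out. Over all genes, the block gave 2139 calls in place of 1175, and leaving out a library 571 to 1050. Directions reversed under library totals for Znfx1 (0.025), Parp9 (0.048), Rnf213 (0.080), Slfn8 (0.021), Ifi35 (0.043) and Epsti1 (0.094), and in libraries 1 and 2 for Cmpk2 (-0.014); none of these passed. With a library left out the range held both signs for Epsti1 (-0.17 to 0.15; over DMSO -0.069 to 0.25 with OPH and -0.058 to 0.26 with FMK), Slfn8 (-0.42 to 0.41), Rsad2 (-0.29 to 0.034), Znfx1 (-0.22 to 0.16), Parp9 (-0.21 to 0.039), Rnf213 (-0.11 to 0.043), Slfn5 (-0.55 to 0.32), Sp100 (-0.44 to 0.044), Cmpk2 (-0.15 to 0.24) and Zc3hav1 (-0.048 to 0.095). The block changed no call of these genes other than those named in the report. In every group a gene with 0 counts could lie at up to 0.147 to 0.166 CPM.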
